A study of Mus musculus with 16 samples.

Results

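The sirtuin genes Sirt1 to Sirt7 and the FOXO genes Foxo1, Foxo3 and Foxo6 were examined in hematopoietic stem cells (HSCs) of young and aged mice. These 10 members, 7 sirtuins and 3 FOXO genes, were taken by symbol from the GENCODE M21 annotation of mm10, out of 21851 protein-coding genes with an annotated start site. For each, peaks were collected over the gene body with 5 kb on either side, called the gene region here, and over its promoters, that is, from 1 kb upstream to 1 kb downstream of any start site. The HSCs came from bone marrow of C57BL/6 mice. They were sorted as negative for IL-7Rα, Lin, CD34, CD48 and Flt3 and positive for Sca-1, c-kit and CD150. Young mice were 10 weeks old and aged mice 20 months old, and the labels name no transgene or treatment in either group. In the study's scheme, bone marrow of several mice was pooled before sorting. ChIP-seq was performed for H3K4me3, H3K27me3 and H2AK119ub1, in 16 libraries: 2 per antibody at each age, and 2 of input chromatin from young and 2 from aged HSCs. The peaks came as 1 pooled list for each mark and age, 6 lists in total. No list of a single library was analysed here, so the spread between replicates is unknown, no difference between the ages was tested, and each one is a difference between lists.

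Sirtuins are enzymes that remove acetyl and other acyl groups from proteins and consume NAD in doing so, which ties them to the metabolic state of the cell. FOXO proteins are forkhead transcription factors that leave the nucleus when insulin and growth factor signalling activates AKT, and Foxo1 and Foxo3 are known for keeping HSCs quiescent and protected from oxidative stress. SIRT1 deacetylates FOXO proteins, which links both families. H3K4me3 marks active promoters, whereas Polycomb complexes lay down H3K27me3 and H2AK119ub1 at repressed genes.

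Facts of the whole series bear on every count below. The H3K4me3 lists held 11371 peaks in young and 6723 in aged HSCs, the H3K27me3 lists 63142 and 20419, and the H2AK119ub1 lists 2593 and 17768. A mark found at a member at 1 age alone therefore has to be read against lists of very different length. Of 10 HSC marker genes, 6 had an H3K4me3 peak at the promoter in young and 8 in aged HSCs, among them Meis1, Mecom, Procr and Hlf at both ages. Of 12 marker genes of other blood cells or of progenitors excluded by the sort, 2 had one in young HSCs and 0 in aged HSCs. Beside both counts stand 33.8% of all protein-coding genes in young and 23.3% in aged HSCs. The part of other cells in the values below was not tested.

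The members' upstream sequences are shown first because the H3K4me3 peaks described below lie on, beside or far from them. RefSeq promoter windows on GRCm38.p6, the assembly that mm10 names, were found for 9 of the 10 members, 11 windows in all. Foxo6 had no entry. The 250 bases before the start held a median of 18 CpG dinucleotides over the 11 windows, with a range from 12 to 39, against a median of 6 over all 32851 windows. Those windows belong to 27025 genes, a wider set than the protein-coding genes used elsewhere here. Over 1 kb on either side of the start, the median CpG observed over expected was 0.57 in members. It was 0.48 in all protein-coding genes, with quartiles of 0.21 and 0.67. Below, the bases before the start that lie outside every annotated exon are written 5′ to 3′ on the strand of the gene, with each CpG in capitals. Sirt1 and Foxo3 are the most CpG-dense, Foxo1 carried a peak just before its start at both ages, the Sirt2 stretch lies between the starts of Sirt2 and Nfkbib, and Sirt5 had no promoter peak in any list.
Sirt1, inner start, chr10:63339051-63339285, minus strand: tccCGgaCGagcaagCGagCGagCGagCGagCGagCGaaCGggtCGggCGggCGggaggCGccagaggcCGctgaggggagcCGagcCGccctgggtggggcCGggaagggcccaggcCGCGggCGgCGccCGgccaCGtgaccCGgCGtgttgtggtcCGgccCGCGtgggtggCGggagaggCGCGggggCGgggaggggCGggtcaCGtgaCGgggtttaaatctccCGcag
Foxo3, chr10:42276756-42276945, minus strand: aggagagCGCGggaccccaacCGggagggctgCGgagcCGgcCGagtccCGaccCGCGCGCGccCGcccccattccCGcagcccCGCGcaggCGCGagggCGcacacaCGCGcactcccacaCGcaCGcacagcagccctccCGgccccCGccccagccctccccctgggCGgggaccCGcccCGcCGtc
Foxo1, chr3:52268087-52268335, plus strand: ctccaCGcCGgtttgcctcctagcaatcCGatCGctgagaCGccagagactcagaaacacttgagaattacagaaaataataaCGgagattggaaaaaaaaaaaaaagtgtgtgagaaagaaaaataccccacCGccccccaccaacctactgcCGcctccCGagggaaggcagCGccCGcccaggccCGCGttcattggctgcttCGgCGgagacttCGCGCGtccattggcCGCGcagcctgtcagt
Sirt2, chr7:28766641-28766734, plus strand: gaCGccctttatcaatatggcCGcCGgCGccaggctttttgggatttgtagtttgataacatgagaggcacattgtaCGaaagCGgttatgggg
Sirt5, chr13:43365285-43365495, plus strand: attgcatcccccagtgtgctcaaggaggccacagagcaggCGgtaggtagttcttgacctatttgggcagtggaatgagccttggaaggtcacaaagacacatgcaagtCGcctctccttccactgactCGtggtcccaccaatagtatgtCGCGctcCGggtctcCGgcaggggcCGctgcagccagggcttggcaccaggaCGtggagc
The Sirt1 stretch held 36 CpGs in 235 bases and the Foxo3 stretch 28 in 190, while Foxo1 held 20 in 249, Sirt5 9 in 211 and Sirt2 6 in 94 bases. A forkhead core motif, GTAAACA on either strand, was in 0 of the 11 member windows and in 3.17% of all windows. The shorter TGTTT, which the longer motif contains on its reverse strand, was in 6 of the 11 windows, those of Foxo1, Sirt2, Sirt3, Sirt6 and Sirt7, and in 46.4% of all windows.

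H3K4me3 was found at the promoters of 7 members in young HSCs (Sirt1, Sirt2, Sirt3, Sirt4, Sirt6, Foxo1 and Foxo3) and of 4 members in aged HSCs (Sirt2, Sirt3, Foxo1 and Foxo3). Of all protein-coding genes, 33.8% had a promoter peak in young and 23.3% in aged HSCs. The 4 members marked in aged HSCs were also marked in young HSCs, a pattern of 17.5% of all genes. Sirt1, Sirt4 and Sirt6 were marked in young HSCs only, as were 16.3% of all genes. No member was marked in aged HSCs only, against 5.78% of all genes. Sirt5, Sirt7 and Foxo6 had no promoter H3K4me3 peak at either age. The members have 27 annotated start sites, the 21851 genes 41438, and a peak at any of them counted. With only the most upstream start of each gene, the same 7 and 4 members were marked, beside 6991 of all genes in young and 4760 in aged HSCs.

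**Figure D1:**
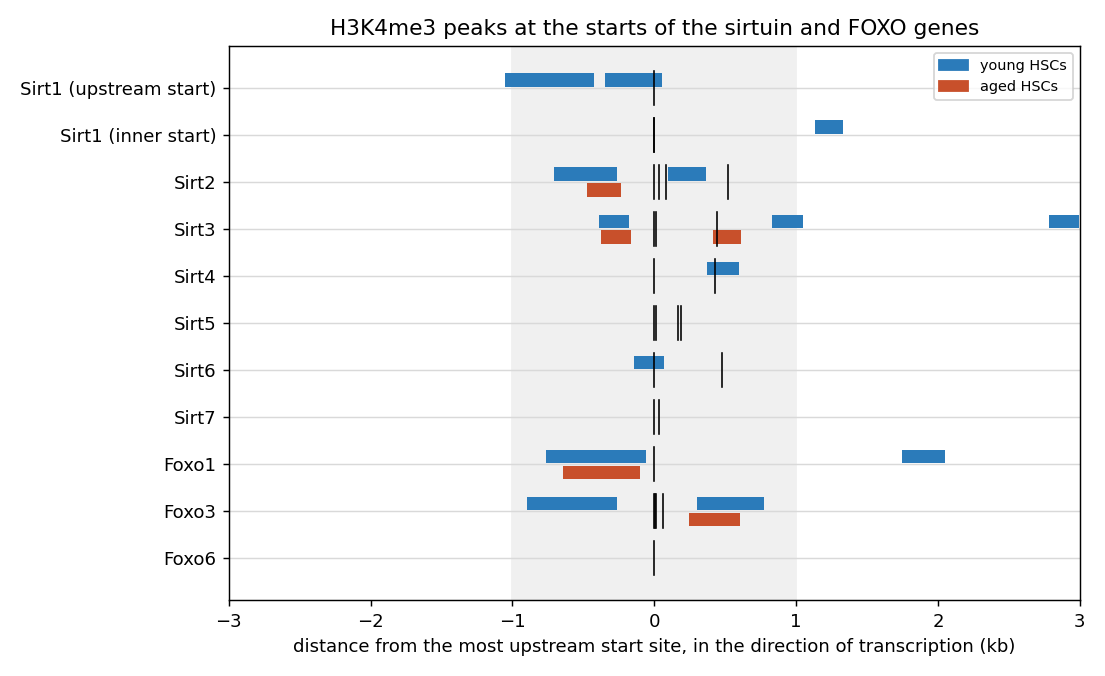
H3K4me3 peaks around the start sites of the 10 members, in kb from the most upstream start (0) in the direction of transcription. Sirt1 has a row for its upstream start and a row for its inner starts. Blue bars are peaks in young HSCs, red bars peaks in aged HSCs, black lines are annotated start sites and grey shading is the promoter window of 1 kb on either side of the 0 line. Sirt2, Sirt3, Foxo1 and Foxo3 have bars at both ages, Sirt1, Sirt4 and Sirt6 in young only, and Sirt5, Sirt7 and Foxo6 none.

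The gene regions held 15 H3K4me3 peaks at 8 members in young HSCs and 6 peaks at 5 members in aged HSCs. Gene regions of 40.6% of all genes held a peak in young and of 29% in aged HSCs. Of the 15 young peaks, 4 overlapped an aged peak, and 4 of the 6 aged peaks overlapped a young one: 1 each at Sirt2, Sirt3, Foxo1 and Foxo3. Of the other peaks, 3 young ones and 1 aged one had a peak of the other age no more than 1 kb away. The share of all listed peaks that overlap a peak of the other age is not given here. These counts of overlap therefore have no background and say nothing particular to the members. The peak height is given below as the pileup, the number of fragments stacked over the summit, which was recovered as a whole number from the fold enrichment and p-value of each narrow peak. Its 95% Poisson interval covers counting error only. Pileups were not adjusted for sequencing depth, which is not known here. A young and an aged pileup are therefore not matched levels. The median pileup of all peaks was 20 fragments in young and 19 in aged HSCs, and the smallest listed over the lowest background was 13 at both ages.

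Sirt1 (chr10:63319005-63381704, minus strand), the nuclear deacetylase of p53 and FOXO proteins, had the highest member peak in young HSCs and no peak in aged HSCs. The peak lay at chr10:63382129-63382759 with a pileup of 29 fragments (interval 19.4 to 41.6) and a fold enrichment of 6.38, and it ranked 75 of 11371 by q-value. A smaller peak, with 19 fragments, covered the start itself at chr10:63381648-63382053. Both fall in the promoter window of the upstream start at base 63381704, which a single annotated transcript uses. The high peak ends 425 bp short of that start and covers the first annotated base (63382443) of Dnajc12, a gene for a co-chaperone on the opposite strand, so it cannot be assigned to Sirt1 alone. The other Sirt1 transcripts start at 63339032 and 63339035, within 3 bases of the RefSeq start, and there no peak was listed within 1 kb at either age. The nearest young peak, chr10:63337703-63337902 with 18 fragments, lay 1130 bp downstream in an intron, just outside the promoter window. In aged HSCs the nearest peak was 89876 bp from an inner start and 47207 bp from the upstream start. With start sites of transcript support level 1 only, the best-supported class of the annotation, Sirt1 had no promoter peak and the young count was 6 members.

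Sirt2 (chr7:28766735-28788661, plus strand), a mainly cytoplasmic deacetylase of tubulin, had H3K4me3 on both sides of its start in young HSCs and upstream only in aged HSCs. The young peaks were at chr7:28766027-28766470 with 21 fragments (13.0 to 32.1) and at chr7:28766832-28767097 with 24 fragments (15.4 to 35.7). The aged peak at chr7:28766260-28766502 had 29 fragments (19.4 to 41.6) and ranked 150 of 6723, the highest rank of a member peak in aged HSCs. Its fold enrichment of 5.22 stood beside 3.17 for the overlapping young peak, over backgrounds of 4.75 and 5.94 fragments. The intervals of both pileups overlapped. Nfkbib, which encodes an inhibitor of NF-kappa-B and runs in the opposite direction, starts 95 bp from Sirt2, and the upstream peaks lie over its exons. The young and aged upstream peaks were centred 318 and 104 bp from a start of Nfkbib, nearer than to a start of Sirt2, so the mark cannot be assigned to Sirt2 alone.

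Sirt3 (chr7:140863666-140882309, minus strand), the main deacetylase of mitochondria, was marked at both ages. The proteasome subunit gene Psmd13 starts 99 bp away on the opposite strand, so these peaks cannot be assigned to Sirt3 alone either. The upstream peak at chr7:140882488-140882696 had 20 fragments (12.2 to 30.9) in young HSCs. In aged HSCs the overlapping peak at chr7:140882476-140882684 had 24 (15.4 to 35.7), within the counting error of the young value. Inside the gene the peaks of the ages did not overlap. In young HSCs they were centred 529 bp and 2445 bp downstream of the nearest Sirt3 start, and in aged HSCs a peak with 18 fragments covered the start at 140881869, 215 bp from the nearest young peak.

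Sirt4 and Sirt6 each had a single peak, in young HSCs. The Sirt4 gene (chr5:115478010-115484725, minus strand), which encodes a mitochondrial sirtuin, had 20 fragments (12.2 to 30.9) at chr5:115484129-115484350, over its inner start and in its UTR. Sirt6 (chr10:81621785-81627797, minus strand), a chromatin-bound deacetylase linked to DNA repair and glycolysis, had 23 fragments (14.6 to 34.5) at chr10:81627727-81627939, over its upstream start, 838 bp from a start of Ankrd24. The Sirt6 peak stood on a higher background, 5.94 fragments, and its fold was 3.46. The nearest aged peaks were 57788 bp from a Sirt4 start and 66469 bp from a Sirt6 start. When the young list was shortened to its 6723 best peaks, the size of the aged list, Sirt4 and Sirt1 were still marked and Sirt6 was not. Absence from a list means that no peak passed the caller's threshold, not that the mark was absent.

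Sirt5 (chr13:43365496-43395203, plus strand), the mitochondrial desuccinylase, and Sirt7 (chr11:120618372-120625240, minus strand), the nucleolar sirtuin, had no promoter peak of any mark. The peaks found in their regions lay at the starts of other genes. In aged HSCs a peak of 23 fragments at chr13:43398412-43398653, in the downstream flank of Sirt5, was centred 128 bp from the start of Nol7, which encodes a nucleolar protein. The nearest young peak to any Sirt5 start was 108361 bp away. In young HSCs a peak of 22 fragments at chr11:120617359-120617809, in the downstream flank of Sirt7, was centred 228 bp from a start of Pcyt2, a gene of phosphatidylethanolamine synthesis. The closest young peak to a Sirt7 start was this one, 7175 bp away.

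Foxo1 (chr3:52268336-52353221, plus strand) and Foxo3 (chr10:42181841-42276755, minus strand) were marked by H3K4me3 at both ages, on an overlapping stretch each. Foxo1 had a peak of 22 fragments (13.8 to 33.3) at chr3:52267575-52268275 in young HSCs and of 20 fragments (12.2 to 30.9) at chr3:52267692-52268235 in aged HSCs. Both end before the start at 52268336, and the aged peak lies within the young one. In the printed Foxo1 window, 189 bases lay under the young and 149 under the aged peak. A second young peak of 22 fragments lay 1747 bp downstream of the start, in the first intron, with no aged peak overlapping it. Foxo3 had 19 fragments (11.4 to 29.7) at chr10:42275984-42276455 and 20 fragments (12.2 to 30.9) at chr10:42277018-42277654 in young HSCs, downstream and upstream of its start sites. In aged HSCs only the downstream side was listed, with 18 fragments (10.7 to 28.4) at chr10:42276150-42276507. The pileups of both genes in young and aged HSCs differed by less than the counting error.

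**Figure D2:**
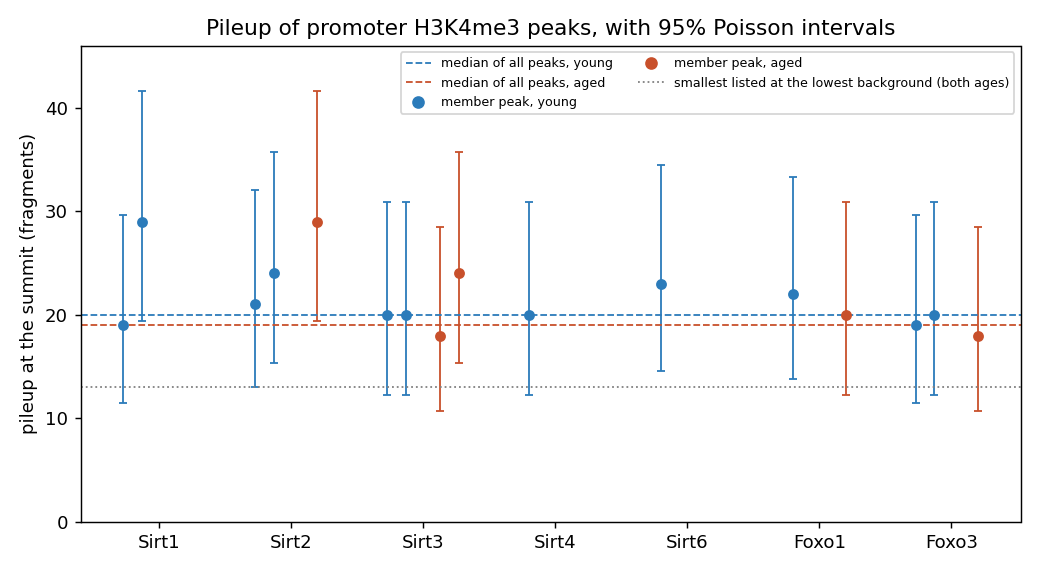
Pileup at the summit of each promoter H3K4me3 peak of the members, in fragments. Points are single peaks (blue young, red aged), bars are 95% Poisson intervals, dashed lines are the medians of all peaks at each age (20 and 19) and the dotted line is the smallest pileup listed at the lowest background (13). The peaks of Sirt2, Sirt3, Foxo1 and Foxo3 at both ages have overlapping intervals, and the highest points are 29 fragments for Sirt1 in young and Sirt2 in aged HSCs.

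Base composition differed between peaks and the stretches beside them at Sirt1, Foxo1 and Foxo3, but not in 1 direction over all members. The 2 kb around the start were 66.1% GC at Foxo1 and 64.3% at Foxo3, with CpG observed over expected of 0.99 and 0.79, and the median of all genes was 51.4% GC and 0.48. Foxo6, which had no H3K4me3 peak, was at 66.8% and 0.77. At their most upstream starts the sirtuins ranged from 45.5% to 57.7% GC and from 0.41 to 0.66. At the inner Sirt1 start the values were 64.5% and 1.00, and 0.30% of all genes had a higher CpG value. At its upstream start, which carried the peaks, they were 47.1% and 0.41. Between the young Foxo3 peaks lay 562 bp of 74.0% GC with no peak, whereas the peaks on either side were 61.7% and 56.0% GC. The 1807 bp between the young Foxo1 peaks were 70.4% GC, and the peaks 60.5% and 56.3%. No young member peak was as GC-rich as these stretches, the range being 38% at Sirt1 to 62.4% at Sirt2. Some aged member peaks were richer, with 74.0% GC in the Sirt5 flank, 68.3% at Sirt2 and 67.0% at the inner Sirt3 start. The other aged member peaks ranged from 59.2% to 63.2%. Over all genes the share with a promoter peak in young HSCs was 6.24% under 45% GC, 46.7% from 55 to 60% GC and 38.9% at 65% or more. The part of base composition in where peaks were listed was not tested.

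**Figure D3:**
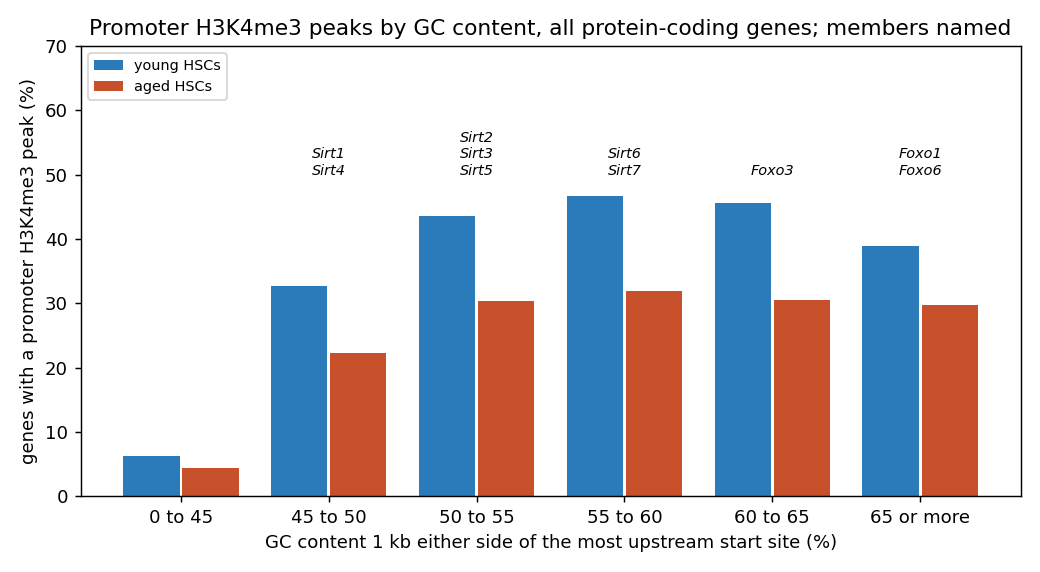
Share of all protein-coding genes with a promoter H3K4me3 peak (y axis, percent) by GC content 1 kb on either side of the most upstream start (x axis, percent), in young (blue) and aged (red) HSCs. Members are named above the class they fall in. The share was lowest under 45% GC, at 6.24% in young and 4.33% in aged HSCs, and no member falls there.

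H3K27me3 was found at a single member, Foxo6 (chr4:120267079-120287349, minus strand), at both ages. Foxo6 is a FOXO gene known mainly from the brain, and it was the member without H3K4me3 in its whole gene region at either age, its nearest H3K4me3 peak lying 118445 bp from the start in young and 118883 bp in aged HSCs. In young HSCs 7 H3K27me3 regions covered 4891 bp, or 16.2%, of the 30271 bp region. Gene regions of 27.8% of all genes held an H3K27me3 region in young HSCs, and 6.25% of genes held as many as Foxo6 or more. The region at the Foxo6 promoter, chr4:120286479-120286869 in the coding sequence 480 bp downstream of the start, had a fold enrichment of 4.20 and ranked 558 of 63142. Promoters of 16% of all genes carried H3K27me3 in young HSCs. The widest region, 1702 bp at chr4:120269137-120270838, lay over coding sequence near the 3′ end, and 3 narrower regions followed it to beyond the end of the gene.

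In aged HSCs 3 H3K27me3 regions at Foxo6 covered 1790 bp, or 5.91%, and none was at the promoter, against 8.24% of promoters and 16.5% of gene regions of all genes. As many regions or more were held by 7.45% of genes. Of the 3 aged regions at Foxo6, 2 overlapped young regions, by 1323 bp in all. The promoter region of young HSCs was 12066 bp from the nearest aged region. The covered length at Foxo6 was 2.73 times greater in young HSCs, while that of the whole list was 4.10 times greater. With the young list shortened to its 20419 best regions, the length of the aged list, 2 regions at Foxo6 remained, the promoter region and the widest one, beside the 3 of aged HSCs. The larger number of regions in young HSCs thus did not hold at equal list length, while the promoter region did. When only regions with a −log10 q-value from 3 upwards were kept, 2 regions at Foxo6 were left in young HSCs and 0 in aged HSCs. Of the whole lists, 7708 of 63142 young regions and only 481 of 20419 aged regions passed that value. The loss in aged HSCs is thus shared with most of the aged list and is not particular to Foxo6.

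H2AK119ub1 at Foxo6 differed between the full lists in the other direction. In young HSCs 2 regions covered 590 bp, 1.95% of the gene region, with none at the promoter. In aged HSCs 11 regions covered 4228 bp, or 14%, and 2 of them, at chr4:120286610-120287091 and over the start at chr4:120287342-120287643, were at the promoter. Promoters with H2AK119ub1 made up 1.91% of all genes in young and 14% in aged HSCs, and gene regions 5.99% and 29%. As many regions as Foxo6 or more were held by 0.57% of genes in aged HSCs and by 1.91% in young HSCs. The covered length was 7.17 times greater in aged HSCs at Foxo6 and 7.83 times greater in the whole list. Both promoter regions were among the weaker of the list (fold enrichment 2.99 and 3.07, ranks 16770 and 14763 of 17768). With the aged list shortened to its 2593 best regions, 1 region remained, chr4:120268926-120269606 near the 3′ end, with a fold of 4.21 and rank 273. Its 681 bp stood beside 2 regions and 590 bp in young HSCs, and the promoter had none, so the higher number of regions in aged HSCs did not hold at equal list length either. Keeping a −log10 q-value from 3 upwards left 0 regions in young HSCs and the same 1 in aged HSCs, beside 80 and 898 regions in the whole lists.

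The positions of the Polycomb regions along Foxo6 differed between the marks. In aged HSCs 6 of the 11 H2AK119ub1 regions were centred no more than 5741 bp from the start and the other 5 from 16888 to 23313 bp downstream of it, with none between. In young HSCs 1 H3K27me3 region was centred 675 bp from the start, 1 at 8181 bp, and the other 5 from 14514 to 21439 bp downstream. The 3 aged H3K27me3 regions were centred 13102, 17462 and 20729 bp downstream, with none near the start, and the 2 young H2AK119ub1 regions 2011 and 16125 bp downstream. H3K27me3 and H2AK119ub1 regions of the same age shared 499 bp in aged HSCs and 0 bp in young HSCs. The aged H2AK119ub1 region at chr4:120286610-120287091 overlaps the place of the young H3K27me3 promoter region, at which no H3K27me3 region was listed in aged HSCs.

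**Figure D4:**
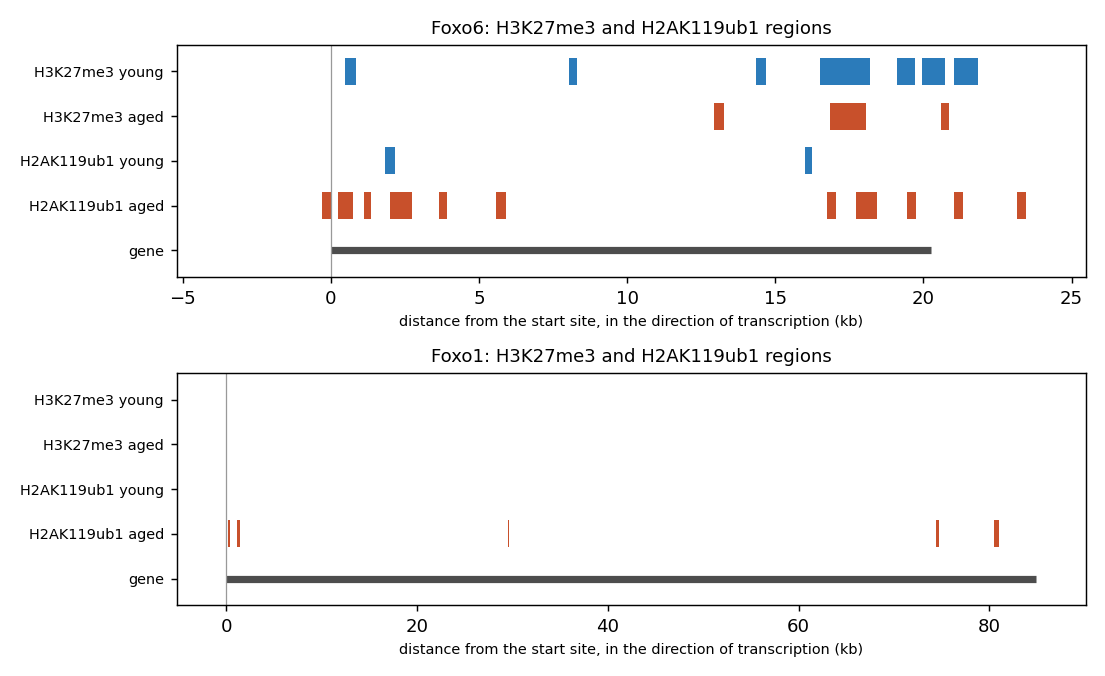
H3K27me3 and H2AK119ub1 regions over Foxo6 (top) and Foxo1 (bottom) in young (blue) and aged (red) HSCs, in kb from the start site in the direction of transcription. The dark bar is the gene. Foxo6 has 7 young and 3 aged H3K27me3 regions and 2 young and 11 aged H2AK119ub1 regions, and Foxo1 has 5 aged H2AK119ub1 regions only.

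Apart from Foxo6, H2AK119ub1 was listed at Foxo1, Foxo3 and Sirt7, in aged HSCs only. Foxo1 had 5 regions covering 1570 bp. The strongest were chr3:52269445-52269733 in the first intron, with a fold enrichment of 3.64, and chr3:52268531-52268750 in the 5′ UTR, with a fold of 3.63. The latter is at the promoter, 195 bp downstream of the start and next to the H3K4me3 peak that ends upstream of it, and overlaps the antisense gene Gm20402. Foxo1 thus carried H3K4me3 and H2AK119ub1 at its promoter in aged HSCs, without H3K27me3. Foxo3 had 1 region, chr10:42274365-42274816 in coding sequence, 1880 bp from the nearest start. The Sirt7 gene region held 2, centred 463 bp from a start of Pcyt2 and 228 bp from a start of Mafg, which encodes a small Maf transcription factor. None of the regions at Foxo1, Foxo3 and Sirt7 was left when the aged list was shortened to 2593 regions, nor when only regions with a −log10 q-value from 3 upwards were kept. No Polycomb mark was listed in the gene regions of Sirt1 to Sirt6.

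The genes that act with the members were examined as 5 lists and Foxo4, the remaining FOXO gene, 127 genes in all. H3K4me3 was at the promoter of 79 (62.2%) in young and of 56 (44.1%) in aged HSCs, beside 33.8% and 23.3% of all genes. Of them, 48 were marked at both ages, 31 in young only and 8 in aged only, beside 17.5%, 16.3% and 5.78% of all genes. The counts of each list below stand against the same 33.8% in young and 23.3% in aged HSCs. The genes named below with their H3K4me3 fragments were picked by the highest −log10 q-value in young HSCs. That choice favours a lower or missing peak in aged HSCs, and it could not name any of the 8 genes marked in aged HSCs only. Their pairs of values therefore do not describe the lists as a whole. Foxo4 had a peak of 16 fragments in young HSCs only, as Sirt1, Sirt4 and Sirt6 did.

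Of 22 genes of insulin, PI3K and AKT signalling, which controls where FOXO proteins reside, 14 (63.6%) were marked in young and 12 (54.5%) in aged HSCs. Pik3r1, a regulatory subunit of PI3K, had 25 fragments in young and 20 in aged HSCs. Pdpk1, the kinase that activates AKT, had 24 in young HSCs and no aged peak. Akt2 had 23 and 22. Among 17 regulators of FOXO proteins, 12 (70.6%) were marked in young and 6 (35.3%) in aged HSCs. Stk4, a kinase that phosphorylates FOXO proteins, had 26 and 18 fragments, whereas the acetyltransferase gene Ep300, the 14-3-3 gene Ywhaz and the deubiquitinase gene Usp7 had 24, 23 and 22 in young HSCs and no peak in aged HSCs.

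Of 32 FOXO target genes, 21 (65.6%) were marked in young and 18 (56.2%) in aged HSCs. Bcl6, a transcriptional repressor, had 26 and 25 fragments, the autophagy gene Gabarapl1 25 and 16, and the retinoblastoma family gene Rbl2 24 and 23. Their fold enrichments in young and aged HSCs were 5.44 and 5.75 at Bcl6, 5.53 and 3.76 at Gabarapl1, and 5.04 and 4.18 at Rbl2. The death ligand gene Tnfsf10 had 24 fragments in young HSCs only. Among 26 genes of NAD metabolism, 10 were marked in young and 7 in aged HSCs, shares of 38.5% and 26.9% that were near those of all genes. Nadk2, a mitochondrial NAD kinase, had 24 at both ages, and Slc25a51, the mitochondrial NAD carrier, 20 at both. Nnt, a transhydrogenase, had 25 and 20, and the NAD synthetase gene Nadsyn1 24 in young HSCs only. Of 29 sirtuin partners and substrates, 21 (72.4%) were marked in young and 13 (44.8%) in aged HSCs. Hadha, a subunit of the mitochondrial enzyme of fatty acid oxidation, had 30 fragments and Glud1, glutamate dehydrogenase, 22, both in young HSCs only. Tubb5, a beta-tubulin, had 28 and 20, and Trp53, which encodes p53, 23 and 20.

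H3K27me3 was at the promoter of 9 of these 127 genes (7.09%) in young HSCs, beside 16% of all genes, and of 4 (3.15%) in aged HSCs, beside 8.24%. H2AK119ub1 was at 1 (0.79%) in young HSCs, beside 1.91% of all genes, and at 17 (13.4%) in aged HSCs, beside 14%. The widest H3K27me3 regions, all in young HSCs, were 3035 bp at Sarm1, an enzyme that breaks down NAD, 2917 bp at the clock gene Arntl, 2235 bp at the kinase gene Sgk1, 2084 bp at the cell death gene Bcl2l11, 1898 bp at the insulin receptor substrate gene Irs1 and 1850 bp at Nmnat2, an NAD synthesis gene. H3K27me3 at Irs1, Nmnat2, Sarm1 and Ppara was listed at both ages. Of the 17 regulators of FOXO proteins, 0 carried it at either age, beside the same 16% and 8.24% of all genes. In aged HSCs H2AK119ub1 was at 4 of 22 genes of insulin, PI3K and AKT signalling: Irs1, Sgk1, and Igf1 and Igf1r, a growth factor and its receptor. It was at 4 of 32 FOXO targets, Bbc3, Bcl2l11, Cdkn1b and S1pr1. These shares, 18.2% and 12.5%, stand beside the 14% of all genes. The other lists had it at 6 of 29 sirtuin partners and substrates, 2 of 26 NAD genes and 1 of 17 regulators. At equal list length 6 of the 127 genes had it.

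**Figure D5:**
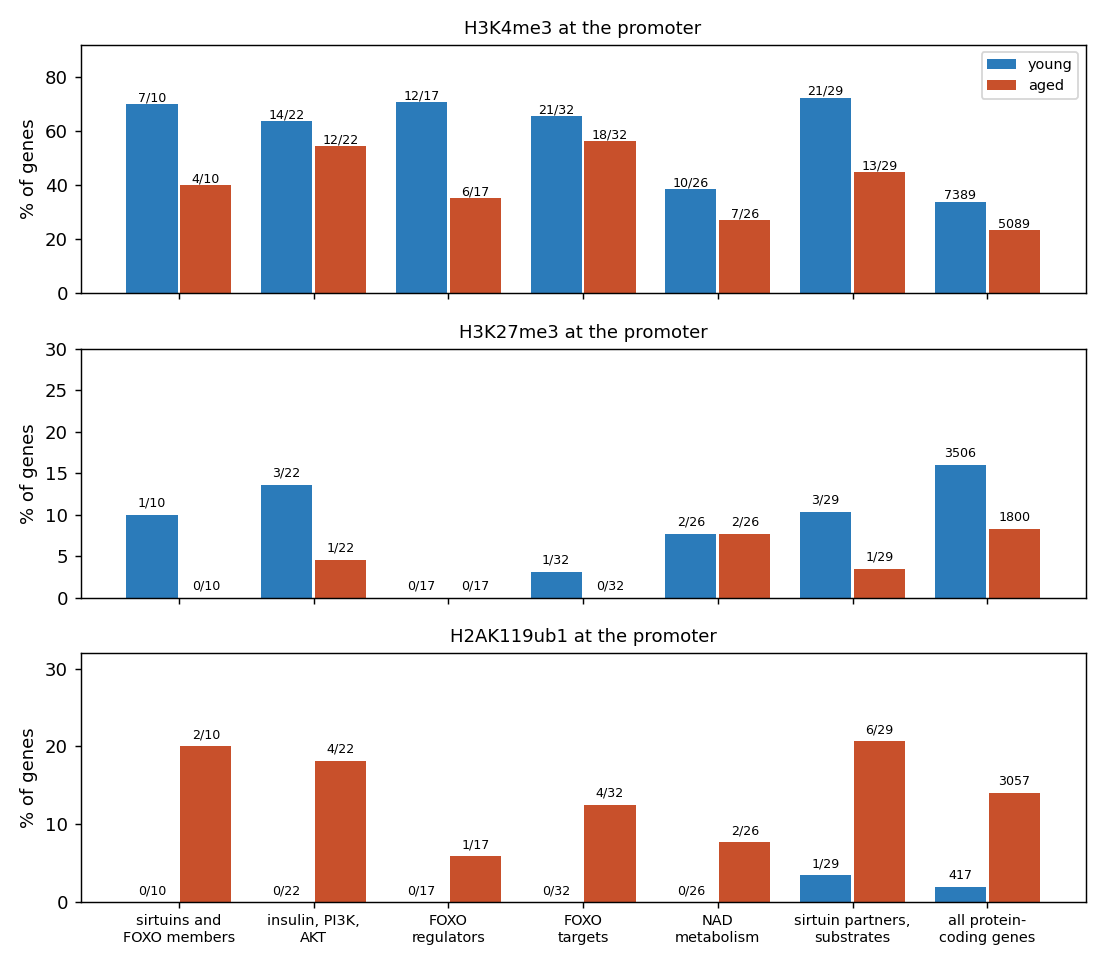
Share of genes (y axis, percent) with H3K4me3, H3K27me3 or H2AK119ub1 at the promoter among the 10 members, in 5 lists of related genes and over all 21851 protein-coding genes, in young (blue) and aged (red) HSCs. Numbers above the bars are marked genes of the genes in the list, or marked genes alone for all genes. H3K4me3 bars are lower in aged HSCs in every list, as over all genes (33.8% and 23.3%), and H2AK119ub1 bars are higher (1.91% and 14% over all genes).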

How the data were processed

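HSCs of young and aged mice were profiled by ChIP-seq with antibodies to 3 histone marks. The authors aligned single reads to mm10 with Bowtie2, and MACS2 2.2.6 is named in the submitters' processing notes. The deposited lists are 1 pooled peak list for each mark and age and give the fold enrichment of each peak as a linear ratio over background, and the −log10 of its p-value and q-value, as the authors' caller wrote them. For the broad marks these are averages over a region. Peak names cite both libraries in the H3K4me3 lists but only 1 in the broad lists, which leaves it uncertain whether the second library contributed there. Duplicate handling and depth per library are not given in the sources used here, and a peak of a single library can enter a pooled list.

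Peaks of the autosomes and sex chromosomes were overlapped by at least 1 bp with promoters (1 kb to each side of the starts of protein-coding transcripts) and gene regions (5 kb flanks) of the GENCODE M21 basic annotation, using Python 3.11.15, numpy 2.4.6 and pandas 2.3.3. The promoter counts of all 6 lists were equal when recomputed with bedtools 2.31.1. Ranks follow the −log10 q-value. For narrow peaks the caller takes the fold from pileup and background, each raised by 1, and the p-value from the Poisson tail. Both were solved for the pileup with scipy 1.17.1, with a whole number fitting within 0.001 of the −log10 p-value for 100% of peaks. Sequence was read with pysam 0.24.0 and samtools 1.23.1, and plots were drawn with matplotlib 3.10.9. The code was tested on simulated data.

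With 1 list for each group no test was possible, and counts are set beside the share of all genes. Named genes were all members and, in each list of related genes, up to 4 with the highest −log10 q-value of a promoter H3K4me3 peak in young HSCs and up to 6 with the widest promoter region of a Polycomb mark. Those lists (insulin, PI3K and AKT signalling, FOXO regulators, FOXO targets, NAD metabolism, sirtuin partners and substrates), the markers and the members were chosen with earlier results of these data known. Single values of some genes that this rule names are not reported here. Nnt has overlapping gene models, of which the older was used. Alternatives were a −log10 q-value of at least 3, equal numbers of peaks in both ages, at least 0.5 of the peak inside the window, promoters of 500 bp or 2 kb, 1 start site a gene and gene bodies without flanks. Start sites of all annotated transcripts and of transcript support level 1 were added after seeing the data.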

Additional observations from a re-analysis of the deposited data

How the results depend on the processing

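Of 176 counts recomputed under an alternative, 151 stayed within 1.5 times the value given. The number of members with promoter H3K4me3 ranged from 6 to 7 in young HSCs and was 4 in aged HSCs under all alternatives run. Keeping a −log10 q-value from 3 upwards, promoter H3K27me3 was at 1514 genes in young and 77 in aged HSCs and at 0 of the 127 related genes in aged HSCs. Promoter H2AK119ub1 was then at 17 genes in young and 249 in aged HSCs, at 0 and 1 related genes, and at 0 members in aged HSCs. Members with a mark in the gene region were then 0 for aged H3K27me3, 0 for young H2AK119ub1 and 1 for aged H2AK119ub1. With equal numbers of peaks in both ages, aged promoter H2AK119ub1 was at 637 genes, 6 related genes and 0 members, and in the gene region of 1 member. With promoters of 500 bp, H2AK119ub1 was at 197 genes in young and 1948 in aged HSCs and at 8 related genes in aged HSCs, and young H3K27me3 at 5 related genes, as with at least 0.5 of the peak inside the window. With promoters of 2 kb, young H2AK119ub1 was at 680 genes and 1 member, Foxo6. With 1 start site a gene it was at 0 related genes. Without flanks, aged H3K4me3 was in 2 gene bodies. Allowing 1 kb between peaks, 7 young member peaks were shared. These changes follow from shorter lists or other windows.

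No paired analysis was possible because the libraries of a group were merged into 1 list, and no fit without a replicate was run. The number of reads behind the lists limits which peaks pass the caller's threshold. A Polycomb region absent from the shorter list of an age is not shown to be absent from the cells.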

Other observations

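Members were also sorted by the presence or absence of a promoter peak in each of the 6 lists, and genes with the same pattern were counted. The pattern of Foxo1, H3K4me3 at both ages with H2AK119ub1 in aged HSCs alone, was that of 308 of 21851 genes (1.41%). Of the 127 related genes 4 had it: Cdkn1b, an inhibitor of the cell cycle, S1pr1, a receptor for sphingosine-1-phosphate, Xrcc6, which encodes the DNA repair protein Ku70, and the 14-3-3 gene Ywhab. The pattern of Foxo6, H3K27me3 in young and H2AK119ub1 in aged HSCs without H3K4me3, was that of 387 genes (1.77%) and of 1 related gene, Clock. The patterns of Foxo1 and Foxo6 rest on the full aged H2AK119ub1 list. At equal list length both members lost that mark at the promoter, and the related genes with it fell from 17 to 6. Sirt2, Sirt3 and Foxo3 shared H3K4me3 at both ages without a Polycomb mark with 3283 genes (15.0%) and with 41 related genes. Sirt1, Sirt4 and Sirt6 shared H3K4me3 in young HSCs alone with 2817 genes (12.9%) and 27 related genes, and Sirt5 and Sirt7 the absence of every mark with 9827 genes (45%) and 33 related genes.

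Only the starts used for the promoters were counted as neighbours, and the first annotated base of Dnajc12 near Sirt1 is not among them. By that count, 3 members had a start of another protein-coding gene within 1 kb of their own: Sirt2, Sirt3 and Sirt6. So did 11.8% of all genes. Genes with such a neighbour had a promoter H3K4me3 peak in 65.7% of cases in young and 47.9% in aged HSCs, the other genes in 29.5% and 20.0%. All 3 members with such a neighbour were marked in young HSCs, and Sirt2 and Sirt3 in aged HSCs.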
